A study of Glycine max with 12 samples.

Results

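The subject here is a group of 200 soybean loci whose transcript levels were many-fold lower in every library of ageing R6 leaves than in every library of young V3 leaves. They were the top 200 of 39443 tested loci, out of 52660 annotated loci with counts, by a ratio of CPM, the reads counted for a locus per 1000000 reads of the scaled library. The ratio was the lowest CPM among the 6 V3 libraries plus 0.1, divided by the highest CPM among the 6 R6 libraries plus 0.1. Only the 26625 loci whose mean CPM plus 0.1 at V3 lay within 1.5-fold between the genotypes could enter, and Glyma.07G014500 was left out. The choice used the measured values of both stage contrasts and of the genotype contrast at V3, so values and counts of calls from these contrasts, and from the difference between the stage effects, are a description of what was chosen and support nothing.

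RNA was sequenced from the third leaf of GmNAC81-3, a line that carries a 35S:GmNAC81 transgene, and of BR16, the wild-type soybean cultivar. GmNAC81-3 R6, BR16 R6, GmNAC81-3 V3 and BR16 V3 each had 3 libraries, and all plants had grown under normal conditions. V3 leaves were taken at 20 days after germination (DAG), during vegetative growth, and R6 leaves at 80 DAG, during seed filling. GmNAC81-3 stands for a single transgenic line whose transgene is driven by a constitutive promoter. The libraries of each stage formed a sequencing set of their own, so effects of leaf stage and of the sequencing run cannot be told apart.

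GmNAC81 encodes a NAC transcription factor that takes part in leaf senescence and programmed cell death. As soybean leaves age and seeds fill, the leaf dismantles its photosynthetic machinery and exports nitrogen, and genes used for building and running the young leaf lose transcripts. The 200 loci were found by level alone and not by function. Descriptions came from the study's gene lists, with 395 described loci, of which 291 lay outside the genotype limit and could not be chosen. All but 1 of the 200 carry no gene name or description in the sources used here and are called by their locus identifiers. The exception is Glyma.10G248400, described as a homologue of WNK1, a kinase of the "with no lysine" family. In Arabidopsis, WNK1 phosphorylates APRR3, a component of the circadian clock.

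Total counts per library ran from 42797825 to 77952663. The TMM factors that scale library sizes were between 0.931 and 1.44 in GmNAC81-3 R6, 1.09 and 1.45 in BR16 R6, 0.498 and 0.657 in GmNAC81-3 V3, and 0.969 and 1.38 in BR16 V3. The targeted gene GmNAC81, with the transgene included, had 46.6, 53.5 and 69.1 CPM in GmNAC81-3 R6, against 60.7, 11.3 and 41.9 CPM in BR16 R6. At V3 it had 81.9, 184 and 33.4 CPM in GmNAC81-3, against 3.59, 6.45 and 7.26 CPM in BR16. The genotypes overlapped at R6 and were apart at V3. Rubisco activase, which keeps the carbon-fixing enzyme of leaves active, was used to check the leaf label. Its 4 loci averaged between 40.1 and 265.5 CPM in GmNAC81-3 R6 and between 39.0 and 321.2 CPM in BR16 R6, against 471.0 to 8275 CPM in GmNAC81-3 V3 and 265.5 to 3882 CPM in BR16 V3, and were detected in all libraries.

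Little of the V3 signal of the 200 loci was left at R6 in either genotype. Summed over the 200 loci, their CPM was 248.9 ± 18.5 in GmNAC81-3 R6, against 11810 ± 365 in GmNAC81-3 V3, and 227.7 ± 50.5 in BR16 R6, against 9907 ± 1140 in BR16 V3 (SD, n = 3 each). Their share of all counts lay between 0.0242% and 0.0374% in the R6 libraries, between 0.608% and 0.766% in GmNAC81-3 V3 and between 1.02% and 1.25% in BR16 V3. No V3 library had a locus of the group at 0, while 19 to 27 of the 200 were at 0 in each R6 library. In bulk leaf RNA, fewer cells of a type and less RNA per cell cannot be told apart.

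**Figure D1:**
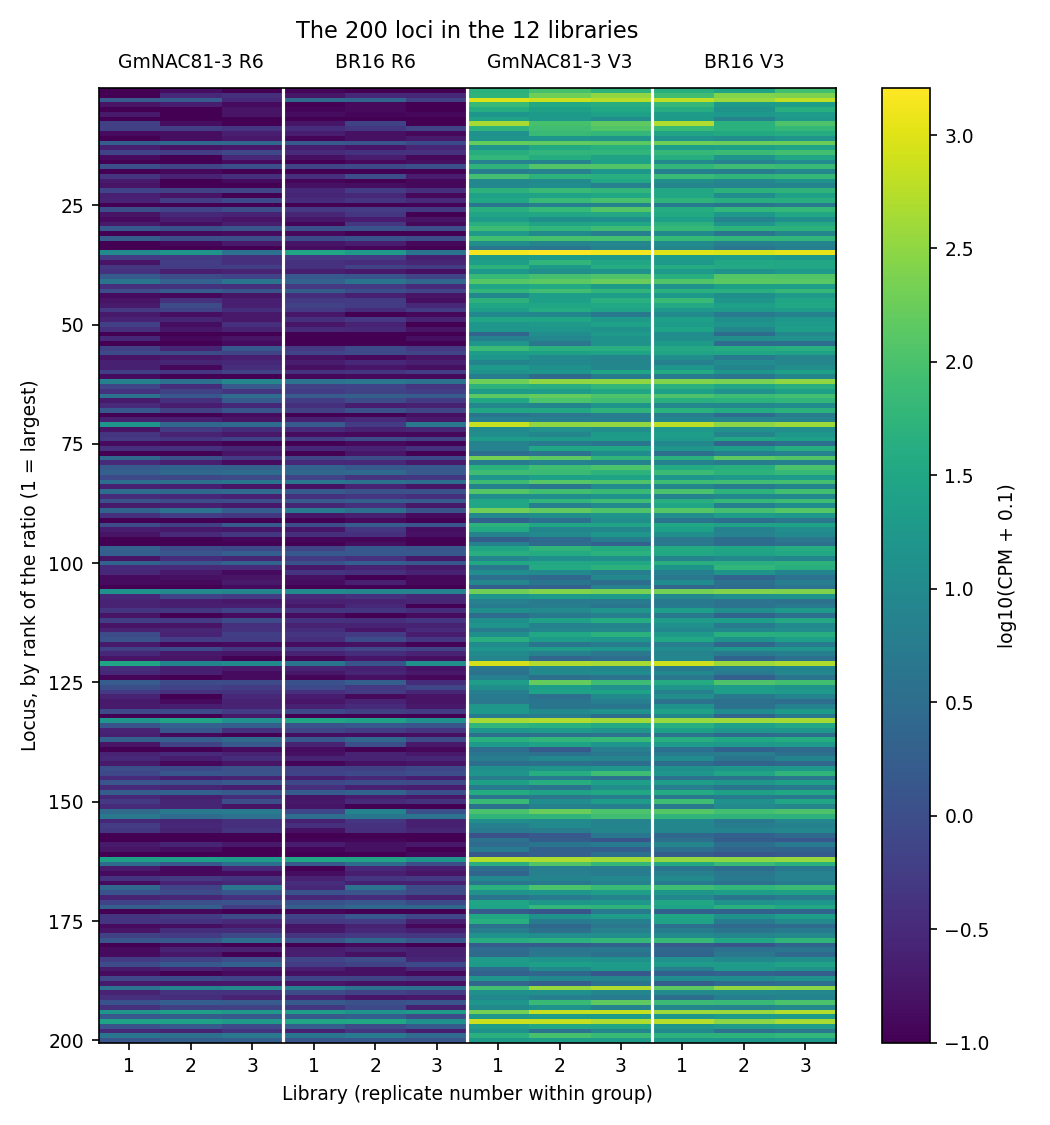
Levels of the 200 loci (rows, by rank of the ratio that chose them) in the 12 libraries (columns, 3 per group), as log10(CPM + 0.1). Every row is brighter in the 6 V3 libraries than in the 6 R6 libraries, as the choice requires, and the brightest row, rank 35, is Glyma.20G150600.

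Loci were called with the quasi-likelihood test of edgeR where the Benjamini-Hochberg adjusted p was below 0.05 and the log2 fold change exceeded 1 in either direction. All 200 loci were called lower at R6, in GmNAC81-3 (20.1% of all tested loci) and in BR16 (19.6% of all tested loci). Both counts follow from the choice of the loci. The median log2 fold change of R6 with V3 was -5.96 in GmNAC81-3 and -5.95 in BR16, beside 0.03 and -0.01 over all tested loci. The remaining R6 level was a median of 1.6% of the V3 level in both genotypes, with a maximum of 7.36% in GmNAC81-3 and 7.46% in BR16. At 56 loci it was under 1% in both genotypes. The ratio between the lowest V3 and the highest R6 library ran from 8.89 to 197.3 with a median of 14.5.

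The drop was seen at loci of very different read yield. Mean V3 values ran from 1.63 to 1234 CPM with a median of 16.3 CPM, compared with a median of 2.57 CPM over all tested loci. CPM is not corrected for transcript length, so these values describe how well each locus was sampled and do not rank the loci by transcript number. Of the 200, 31 averaged under 5 CPM at V3 and 19 averaged 100 CPM or more, of which 8 reached 300 CPM. At R6, 143 loci stayed under 1 CPM in every library and 8 reached 10 CPM or more in some library. Low R6 values rest on few reads. No read was counted in any R6 library for Glyma.15G133900, Glyma.18G057800 and Glyma.10G139800, and 17 loci had at most 3 counts in each R6 library. A limit of 3 counts corresponds to between 0.0266 and 0.0497 CPM per R6 library.

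The 10 loci with the largest ratio fell into loci at the detection limit at R6 and loci with a small remainder. Glyma.16G094000, at the head of the list, had 0, 0.0425 and 0 CPM in GmNAC81-3 R6, against 50.6, 96.0 and 52.3 CPM in GmNAC81-3 V3. In BR16 it had 0.0178, 0 and 0 CPM at R6, against 43.2, 28.01 and 85.0 CPM at V3. The 3 R6 libraries together held 4 counts in GmNAC81-3 and 2 in BR16. The V3 level was 7098 times the R6 level in BR16, with a 95% counting interval of 1965 to 58610, and the fitted log2 fold change was -11.71 (SE 0.85) in GmNAC81-3. Each SE of a log2 fold change was derived from the F statistic of the edgeR test and is approximate. Intervals and floors cover counting error only. Since both mates of a read pair may have been counted, the 2 counts may stand for 1 fragment, and the lower end of the interval would then be 1274.

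Glyma.15G133900 was not detected at R6 in either genotype. It had 26.7, 17.8 and 11.4 CPM in GmNAC81-3 V3 and 19.5, 7.58 and 17.5 CPM in BR16 V3. Against a floor of 3 counts over the 3 R6 libraries, its R6 level was at least 1347-fold lower in GmNAC81-3 and at least 1350-fold lower in BR16. The other pair of loci without any R6 count, named after their values were seen, had lower V3 levels and so weaker bounds. Glyma.18G057800 was at least 781.9-fold lower in GmNAC81-3 and at least 703.6-fold lower in BR16. For Glyma.10G139800 the bounds were 163.7-fold in GmNAC81-3 and 214.6-fold in BR16. If each fragment gave 2 counts, all of these bounds would be smaller by a factor of 2, for example 673.5-fold in GmNAC81-3 and 675.0-fold in BR16 at Glyma.15G133900.

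Glyma.08G199500 and Glyma.14G085600 were also close to the detection limit. Glyma.08G199500 had 0, 0 and 0.0639 CPM in GmNAC81-3 R6, against 39.6, 24.3 and 32.9 CPM in GmNAC81-3 V3, and 0.0178, 0.0273 and 0 CPM in BR16 R6, against 40.4, 13.8 and 45.2 CPM in BR16 V3. Glyma.14G085600 had 0.0662, 0.106 and 0.0320 CPM in GmNAC81-3 R6, against 68.2, 35.2 and 41.6 CPM in GmNAC81-3 V3, and 0, 0.0273 and 0 CPM in BR16 R6, against 64.2, 19.8 and 22.8 CPM in BR16 V3. At R6 the Glyma.14G085600 libraries of GmNAC81-3 lay above those of BR16, but on 16 counts and 2 counts in all, and the difference between the genotypes was not called (log2 fold change 2.97, SE 1.14, adjusted p = 0.652 by edgeR).

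Glyma.20G115500 had even levels among the V3 libraries. They were 16.1, 19.5 and 24.8 CPM in GmNAC81-3 and 20.4, 17.1 and 20.6 CPM in BR16, and its highest R6 value was 0.0994 CPM. Glyma.12G012000 kept a measurable remainder, with 0.530, 0.488 and 0.351 CPM in GmNAC81-3 R6 and 0.258, 0.382 and 0.635 CPM in BR16 R6. Its V3 values were 52.5, 81.1 and 114.7 CPM in GmNAC81-3 and 70.8, 49.0 and 64.1 CPM in BR16. The fitted log2 fold changes of Glyma.12G012000 were -7.49 (SE 0.45) in GmNAC81-3 and -7.17 (SE 0.44) in BR16, so the remainder was of similar size in both genotypes.

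Glyma.05G056300 and Glyma.15G057600 differed several-fold among V3 libraries of the same genotype, and Glyma.19G105100 did so in GmNAC81-3. Glyma.05G056300 had 53.5, 189.1 and 322.2 CPM in GmNAC81-3 V3 and 81.0, 253.6 and 235.6 CPM in BR16 V3, with its lowest value in replicate 1 of both genotypes. Glyma.15G057600 was the opposite case, with 444.0, 97.4 and 144.2 CPM in GmNAC81-3 V3 and 497.9, 48.5 and 105.7 CPM in BR16 V3, highest in replicate 1 of both. Glyma.19G105100 had 13.5, 69.6 and 59.7 CPM in GmNAC81-3 V3 and 28.5, 36.0 and 39.4 CPM in BR16 V3. The highest R6 value of these loci was 0.545 CPM. Their log2 fold changes carried wide errors where the V3 libraries disagreed, as at Glyma.15G057600 (-10.29, SE 1.78 in GmNAC81-3, and -10.11, SE 1.76 in BR16).

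**Figure D2:**
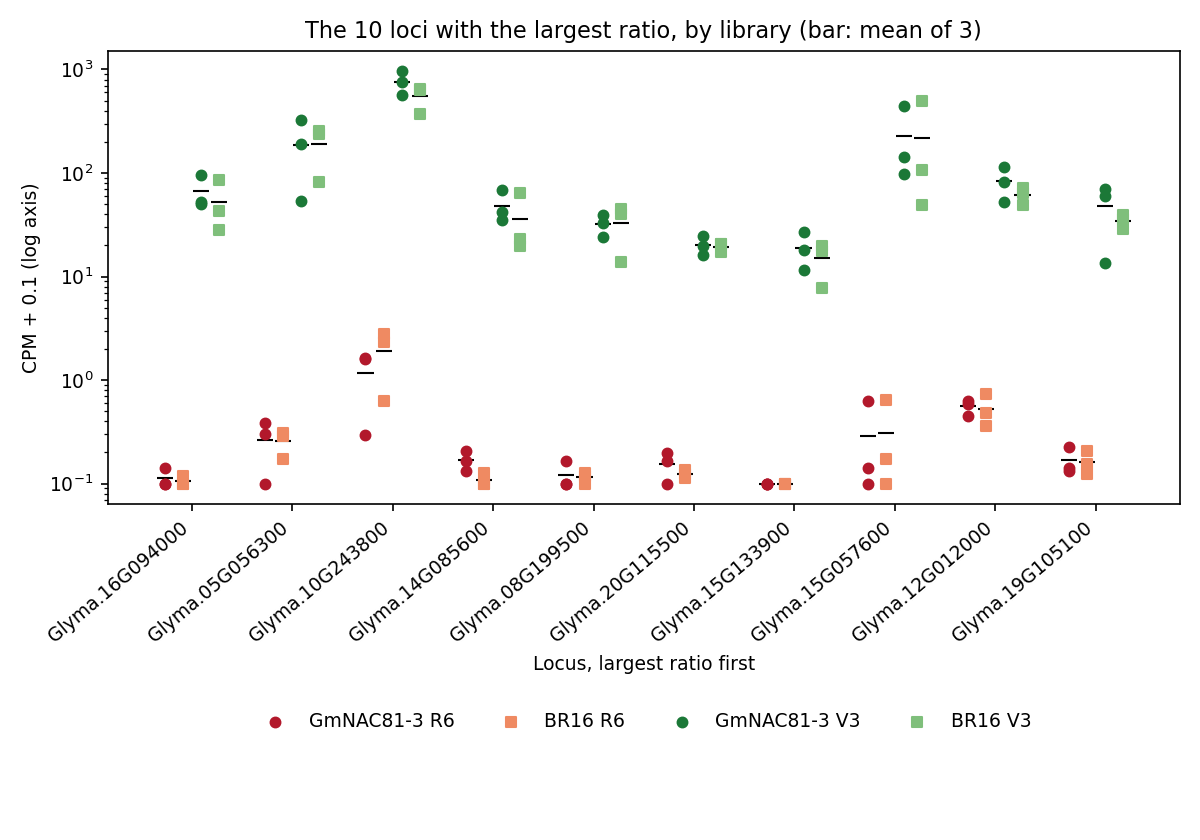
CPM + 0.1 on a log axis of the 10 loci with the largest ratio, by library (points) with the mean of 3 libraries (bars), for GmNAC81-3 R6, BR16 R6, GmNAC81-3 V3 and BR16 V3. Glyma.15G133900 lies at 0 CPM in all 6 R6 libraries, and the V3 points of Glyma.15G057600 and Glyma.05G056300 are spread several-fold in both genotypes.

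Among the loci with the most V3 reads, a remainder could be measured in CPM at R6. It was not a large share of the V3 level at all of them, since Glyma.10G243800 was also among the 10 loci with the largest ratio. The 5 loci with the most V3 reads were Glyma.20G150600, Glyma.10G243800, Glyma.20G196900, Glyma.06G113200 and Glyma.11G238800. Glyma.20G150600 had 10.3, 15.2 and 3.75 CPM in GmNAC81-3 R6, against 1342, 1607 and 1342 CPM in GmNAC81-3 V3, and 30.5, 18.8 and 4.15 CPM in BR16 R6, against 1003, 944.0 and 1170 CPM in BR16 V3. Its R6 libraries differed several-fold within each genotype while its V3 libraries were close to each other.

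Glyma.10G243800, which had rank 3 by ratio, had 1.52, 1.51 and 0.192 CPM in GmNAC81-3 R6 and 2.71, 2.24 and 0.531 CPM in BR16 R6. Its V3 values were 959.0, 749.9 and 567.2 CPM in GmNAC81-3 and 639.6, 373.3 and 644.7 CPM in BR16. Replicate 3 was the lowest R6 library of both genotypes at this locus and at Glyma.20G150600. Glyma.20G196900 had 30.2, 7.87 and 10.1 CPM in GmNAC81-3 R6, against 874.8, 504.0 and 455.8 CPM in GmNAC81-3 V3, and 4.08, 1.13 and 12.5 CPM in BR16 R6, against 778.0, 383.7 and 507.3 CPM in BR16 V3. Replicate 1 had the highest Glyma.20G196900 level among the 3 V3 libraries of each genotype.

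Glyma.06G113200 and Glyma.11G238800 were near the lower end of the ranking despite their high V3 counts. Glyma.06G113200 averaged 23.8 ± 4.48 CPM in GmNAC81-3 R6, against 643.2 ± 119 CPM in GmNAC81-3 V3, and 25.2 ± 10.9 CPM in BR16 R6, against 431.8 ± 129 CPM in BR16 V3 (SD, n = 3 each). Glyma.11G238800 averaged 19.2 ± 4.15 CPM in GmNAC81-3 R6, against 529.1 ± 274 CPM in GmNAC81-3 V3, and 19.3 ± 4.04 CPM in BR16 R6, against 435.1 ± 94.9 CPM in BR16 V3 (SD, n = 3 each). Their log2 fold changes were between -4.78 and -4.10, smaller in size than the median of the group.

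The limit of the group was not a gap in the data. Just inside it were Glyma.18G070500, with a ratio of 8.897, and Glyma.07G266800, with 8.894. Just outside were Glyma.09G263400, with 8.885, and Glyma.15G055300, with 8.856. The choice by the extreme libraries, and not by means, kept Glyma.09G263400 out, since BR16 R6 replicate 2 had 1.69 CPM while the other R6 libraries had between 0.185 and 0.497 CPM. Its log2 fold changes, -6.26 in GmNAC81-3 and -4.91 in BR16, were within the range of the 200. In the wider table, 4343 of the 26625 eligible loci had every V3 library above every R6 library.

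Glyma.10G248400, the WNK1 homologue, ranked 99 and was lost in both genotypes. It had 0.0662, 0.255 and 0.176 CPM in GmNAC81-3 R6, against 8.65, 13.0 and 12.8 CPM in GmNAC81-3 V3. In BR16 it had 0.417, 0.300 and 0.0923 CPM at R6, against 7.48, 9.37 and 8.52 CPM at V3. The log2 fold change was -6.05 (SE 0.52) in GmNAC81-3 and -4.94 (SE 0.48) in BR16, and the R6 levels of the genotypes were not called different (log2 fold change -0.66, SE 0.50, adjusted p = 0.892 by edgeR). Its description came from gene lists that the study reported as different between the genotypes at V3. Here the V3 difference, which the choice limited, was not called (log2 fold change 0.44, SE 0.40, adjusted p = 0.533 by edgeR).

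The other 3 loci described as WNK1 homologues were not chosen by level and behaved differently from each other. Glyma.10G160400 fell to 4.15 ± 0.138 CPM in GmNAC81-3 R6, against 21.5 ± 3.41 CPM in GmNAC81-3 V3, and to 4.79 ± 1.06 CPM in BR16 R6, against 14.1 ± 2.53 CPM in BR16 V3 (SD, n = 3 each; log2 fold changes -2.37 with adjusted p = 8.59e-06 and -1.56 with adjusted p = 0.000146 by edgeR). Glyma.19G242900 and Glyma.20G228000 did not pass the limits on p and fold change together in either genotype. Glyma.19G242900 averaged 5.23 ± 0.178 CPM in GmNAC81-3 R6, against 2.68 ± 0.531 CPM in GmNAC81-3 V3, and 5.002 ± 0.508 CPM in BR16 R6, against 3.70 ± 0.573 CPM in BR16 V3 (SD, n = 3 each; log2 fold changes 0.96 with adjusted p = 0.00206 and 0.43 with adjusted p = 0.0847 by edgeR). Glyma.20G228000 averaged 7.52 ± 1.94 CPM in GmNAC81-3 R6, against 13.9 ± 1.42 CPM in GmNAC81-3 V3, and 9.46 ± 3.32 CPM in BR16 R6, against 9.25 ± 0.740 CPM in BR16 V3 (SD, n = 3 each; log2 fold changes -0.88 with adjusted p = 0.0198 and 0.03 with adjusted p = 0.933 by edgeR). In GmNAC81-3 both thus passed the limit on p but not that on the fold change, in opposite directions. Whether reads were shared among these related sequences was not tested.

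The genotype contrast at R6 was not used in choosing the loci, apart from the shared limit on the highest library. Loci could, however, pass the expression filter through their V3 libraries alone, and 143 of the 200 stayed under 1 CPM in every R6 library. The shares over all tested loci include loci with many more R6 reads and are no matched comparison. Differences between the shares were not tested and support nothing. No locus of the 200 was called between GmNAC81-3 R6 and BR16 R6 by edgeR, where 0.0989% of all tested loci were called. At an unadjusted p under 0.05 there were 27 of the 200 (13.5%), beside 6.86% of all tested loci. DESeq2's Wald test called 5 of the 200 (2.5%), beside 0.568% of all tested loci. Of the 27, 20 were higher in GmNAC81-3 and 7 lower, and 21 had no R6 library at 1 CPM or above. The GmNAC81-3 libraries lay wholly above those of BR16 at 19 loci (9.5% of the 200, and 6.80% of all tested loci) and wholly below at 6 (3%, and 6.86% of all tested loci). The median log2 fold change over the 200 was 0.16, with a range from -3.36 to 3.97, beside 0.00 over all tested loci.

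The lowest p at R6 belonged to Glyma.02G073600, named after its values were seen. It had 0.265, 0.488 and 0.383 CPM in GmNAC81-3 R6, against 0.0888, 0.136 and 0.0346 CPM in BR16 R6, a log2 fold change of 2.15 (SE 0.43, adjusted p = 0.131 by edgeR, 0.000965 by DESeq2). The groups did not overlap, on 86 counts in GmNAC81-3 and 23 in BR16. At V3 the order was the other way, with 9.38, 12.5 and 14.9 CPM in GmNAC81-3 and 11.9, 20.7 and 17.2 CPM in BR16. The adjacent locus Glyma.02G073700, also among the 200, had 0.232, 0.170 and 0.0639 CPM in GmNAC81-3 R6, against 0.0710, 0 and 0 CPM in BR16 R6. Here the libraries overlapped and the difference was not called (log2 fold change 2.39, SE 0.84, adjusted p = 0.617 by edgeR).

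The other 4 loci that DESeq2 alone called were also higher in GmNAC81-3 R6. Glyma.16G155100 had 0.596, 0.488 and 0.703 CPM in GmNAC81-3 R6, against 0.213, 0.314 and 0.300 CPM in BR16 R6. Glyma.06G169700 had 3.01, 2.50 and 2.89 CPM in GmNAC81-3 R6, against 1.47, 1.02 and 1.01 CPM in BR16 R6. In neither case did the libraries overlap, and edgeR gave log2 fold changes of 1.11 (adjusted p = 0.235) and 1.25 (adjusted p = 0.270). Glyma.15G267900 and Glyma.14G220700 had log2 fold changes of 1.22 and 2.61, with adjusted p of 0.350 and 0.436 by edgeR. All of these remainders were small beside V3, where the 5 loci averaged between 14.4 and 86.01 CPM.

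The difference between the genotypes in their stage effect is built from contrasts that the choice used, so its counts are a description. It was called at none of the 200 loci by edgeR (0.071% of all tested loci), with 18 at an unadjusted p under 0.05 (9%, and 13.1% of all tested loci) and 7 by DESeq2 (3.5%, and 2.64% of all tested loci). At V3 the choice limited the difference between genotypes, and none of the 200 was called, beside 3.44% of all tested loci, with 6 at an unadjusted p under 0.05 (3%, and 23.4% of all tested loci) and 0 by DESeq2 (8.01% of all tested loci). GmNAC81-3 V3 and BR16 V3 had separate ranges at 20 of the 200 (10%), beside 24% of all tested loci. The mean CPM was higher in GmNAC81-3 V3 at 144 of the 200 loci, and at 47.5% of all tested loci. This direction depended on the scaling, since with CPM of total counts the mean was higher in GmNAC81-3 V3 at 0 of the 200, where the median over all tested loci shifted to -0.96 on the log2 scale. At R6 the mean was higher in GmNAC81-3 at 124 loci (62%, and 50.2% of all tested loci), at 127 with DESeq2's size factors and at 104 with total counts.

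**Figure D3:**
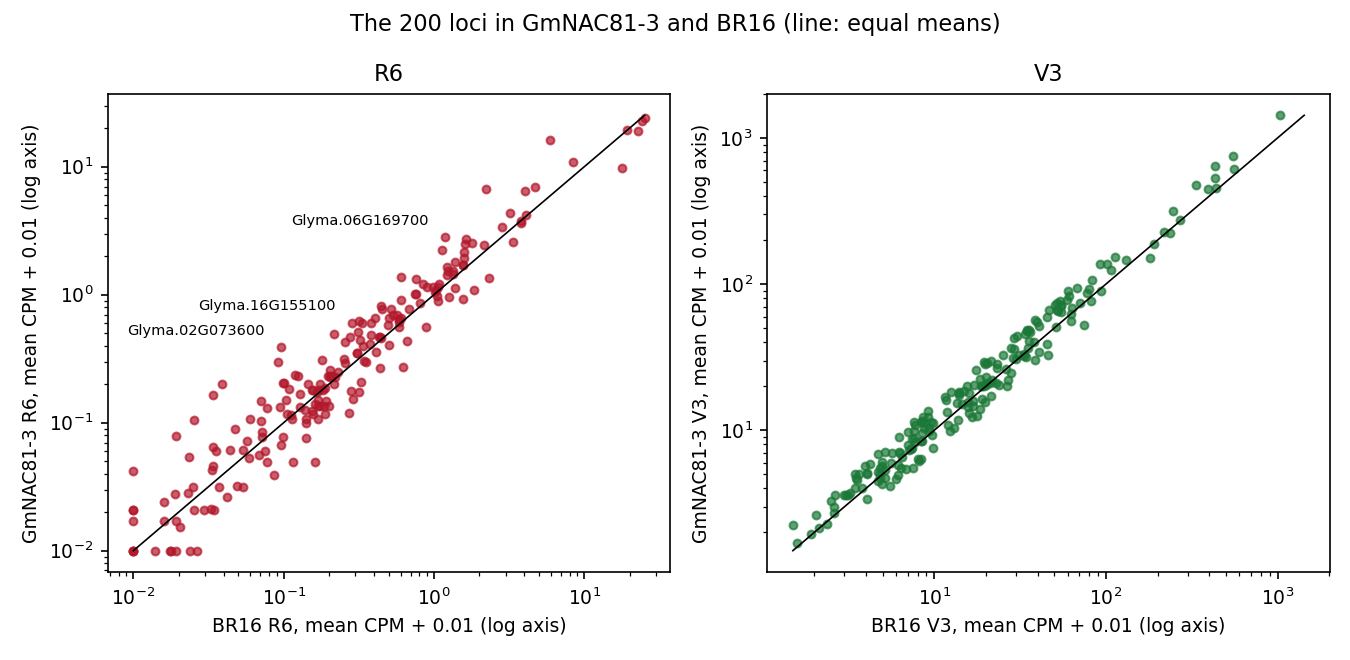
Mean CPM + 0.01 of the 200 loci in GmNAC81-3 (vertical axes) and BR16 (horizontal axes), on log axes, at R6 (left) and V3 (right), with the line of equal means. The points at V3 lie close to the line, as the choice requires, while those at R6 scatter more widely below 1 CPM, with Glyma.02G073600, Glyma.16G155100 and Glyma.06G169700 above the line.

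The levels at V3 varied among libraries with the same replicate number in both genotypes. Replicate 1 was the highest V3 library in both genotypes at 51 of the 200 loci (25.5%, and 21.1% of all tested loci) and the lowest in both at 46 (23%, and 24.9% of all tested loci). Replicate 2 was the lowest in both at 40 (20%, and 11.1% of all tested loci) and the highest in both at 14 (7%, and 14.7% of all tested loci). Replicate 3 was the highest in both at 33 (16.5%, and 8.54% of all tested loci) and the lowest in both at 6 (3%, and 7.80% of all tested loci). These V3 values took part in the choice and are a description. Across the 200 loci, the deviation of replicate 1 from the other V3 libraries in GmNAC81-3 had a Pearson correlation of 0.64 with that in BR16, and across all 39443 tested loci of 0.46. Both are descriptions across loci that share the same 6 libraries. At 10 loci (5%, and 2.53% of all tested loci) replicate 1 was over 2-fold above the mean of the other V3 libraries, taken on the log2 scale, in both genotypes. Glyma.15G057600 and Glyma.19G244600 were among them. At 8 loci (4%, and 2.99% of all tested loci) replicate 1 was over 2-fold below that mean in both, Glyma.05G056300 and Glyma.08G034400 among them. Even so, the lowest V3 library stayed above every R6 library at each locus, as the choice requires. Median coefficients of variation at V3 were 31.2% in GmNAC81-3 and 23.3% in BR16 for the 200, beside 32.8% and 22.6% over all tested loci.

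The 200 loci lay on all 20 chromosomes, with 4 on chromosome 20 and 16 on chromosome 10. Per 1000 tested loci there were between 2.31, on chromosome 20, and 8.31, on chromosome 3. Of them, 46 lay in 20 groups of neighbours no more than 10 annotated loci apart. No such count is given for other sets of loci, so whether this is particular to the 200 was not tested. The position of the loci was not part of the choice. Groups with at least 3 of the 200 lay on chromosomes 10, 12, 14 and 15.

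On chromosome 10 the loss extended along a stretch of neighbours. The loci Glyma.10G060500, Glyma.10G060600, Glyma.10G060700, Glyma.10G061300 and Glyma.10G061500 were among the 200. From Glyma.10G060400 to Glyma.10G061800, all 14 tested loci were called lower at R6 in both genotypes, which includes 9 loci outside the 200. Over all tested loci, 15.1% were called lower in both. The calls of the 5 loci among the 200 follow from the choice. The stretch was the longest unbroken one of such loci in the annotated order. The next had 8 loci on chromosome 6 and none of the 200. Stretches were ranked by length, so the length of the chromosome 10 stretch is a description. On its lower side it ended at Glyma.10G060300, which was called lower in GmNAC81-3 (log2 fold change -1.33, adjusted p = 0.0369 by edgeR) but not in BR16 (-0.45, adjusted p = 0.470).

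The 5 chromosome 10 loci of the group shared their lowest library within BR16 V3. Glyma.10G061300 had 0.0662, 0.191 and 0.160 CPM in GmNAC81-3 R6, against 28.1, 32.1 and 33.9 CPM in GmNAC81-3 V3, and 0.187, 0.354 and 0 CPM in BR16 R6, against 35.7, 17.3 and 32.7 CPM in BR16 V3. Glyma.10G060700 had 0.133, 0.0637 and 0 CPM in GmNAC81-3 R6, against 24.97, 26.7 and 33.1 CPM in GmNAC81-3 V3, and 0.178, 0.191 and 0.0231 CPM in BR16 R6, against 32.3, 11.6 and 25.9 CPM in BR16 V3. Replicate 2 was the lowest BR16 V3 library at all 5, and also at the neighbours Glyma.10G060400, Glyma.10G061400, Glyma.10G061600 and Glyma.10G061700, with 0.823, 0.875, 0.836 and 2.78 CPM. Glyma.10G060800 and Glyma.10G061000, which lie between them and were outside the genotype limit, showed the opposite, with 44.4 and 23.5 CPM in BR16 V3 replicate 2, against at most 6.49 and 3.79 CPM in the other BR16 V3 libraries. Glyma.10G061100 and Glyma.10G061200 did not share the pattern either. Replicate 2 was the highest BR16 V3 library at Glyma.10G061100, with 0.489 CPM, and replicate 3 the lowest at Glyma.10G061200, with 3.89 CPM. Loci that follow each other in the annotation can be copies of a gene, and whether reads were shared among these neighbours was not tested.

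**Figure D4:**
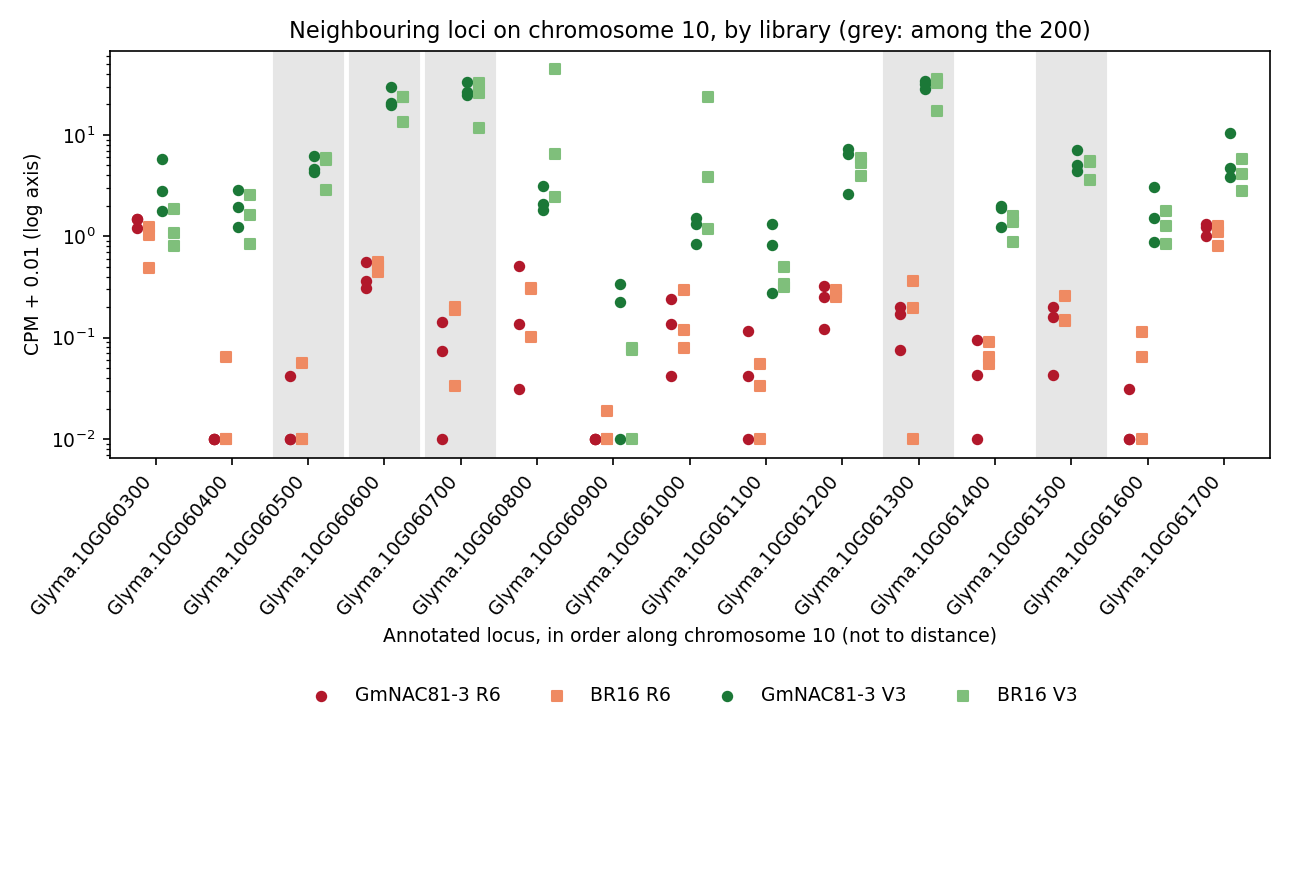
CPM + 0.01 on a log axis of the annotated loci from Glyma.10G060300 to Glyma.10G061700, in their order on chromosome 10, by library for GmNAC81-3 R6, BR16 R6, GmNAC81-3 V3 and BR16 V3, with the 5 loci of the group shaded grey. At every tested locus after Glyma.10G060300 the V3 points lie above the R6 points, and Glyma.10G060900 had too few counts to be tested.

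The other groups of neighbours were not unbroken to the same extent. On chromosome 15, between Glyma.15G242200 and Glyma.15G243400, 6 of 7 tested loci were called lower in both genotypes, of which 3, with Glyma.15G243300, were among the 200. Calls of loci among the 200 follow from the choice. Outside the 200, 3 of 4 tested loci there were called, beside 15.1% of all tested loci. Glyma.15G243400 had 0.795, 0.849 and 0.639 CPM in GmNAC81-3 R6, against 22.4, 24.8 and 27.1 CPM in GmNAC81-3 V3, and 0.604, 0.750 and 0.669 CPM in BR16 R6, against 28.9, 29.2 and 25.9 CPM in BR16 V3, with little spread within any group. On chromosome 12, from Glyma.12G011600 through Glyma.12G012000 to Glyma.12G013100, 4 of 11 tested loci were called lower in both genotypes, among them the 3 of the group. Outside the 200, only 1 of 8 tested loci there was called, beside the same 15.1%. On chromosome 14, between Glyma.14G219300 and Glyma.14G220700, only Glyma.14G219300, Glyma.14G220200 and Glyma.14G220700, all among the 200, were called lower in both, and the 10 other tested loci were not.

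Within the chromosome 14 group, the loci differed at R6. Glyma.14G220700 had 0.331, 0.149 and 0.0958 CPM in GmNAC81-3 R6, against 0.0355, 0.0273 and 0.0231 CPM in BR16 R6, without overlap, on 40 counts in GmNAC81-3 and 8 in BR16. Glyma.14G220200 had 0.0331, 0.106 and 0.0639 CPM in GmNAC81-3 R6, against 0.0888, 0.109 and 0.0692 CPM in BR16 R6. Glyma.14G219300 averaged 0.342 ± 0.0438 CPM in GmNAC81-3 R6 and 0.296 ± 0.137 CPM in BR16 R6 (SD, n = 3 each). Only the Glyma.14G220700 libraries were apart, and edgeR called none of these differences.

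Loci called lower at R6 were then counted among the nearest neighbours of the 200. Among the 380 nearest tested loci outside the group, 122 (32.1%) were called lower in GmNAC81-3, beside 20.1% of all tested loci, and 123 (32.4%) in BR16, beside 19.6%. Higher calls were 12.4% in GmNAC81-3 and 11.3% in BR16, beside 16.5% and 15.1% of all tested loci. At a distance of 1 tested locus 26.8% were called lower in both genotypes, at 2 loci 22.9% and at 3 loci 19.7%, beside 15.1% of all tested loci. At 5 loci the share was 14.4%, near the level over all tested loci. A decline with distance was also present around the other 5739 loci called lower in both genotypes, with 21.2% at a distance of 1 and 17% at 2. The difference between these shares was not tested, and neighbours are not independent of each other.

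**Figure D5:**
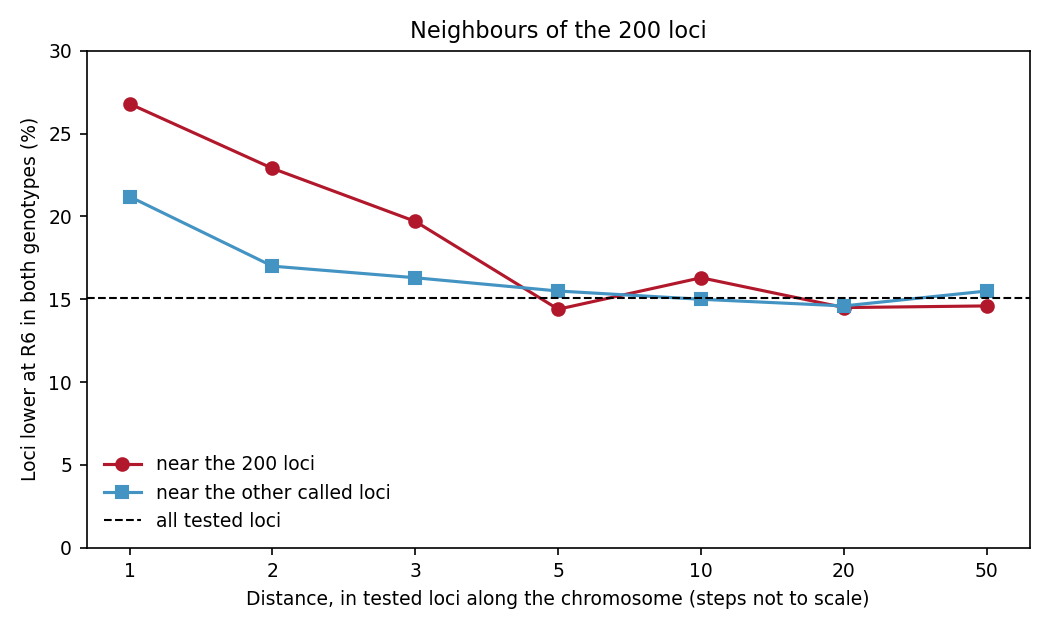
Share of tested loci called lower at R6 in both genotypes (percent, vertical axis) at distances of 1 to 50 tested loci along the chromosome from the 200 loci and from the other 5739 called loci, with the share over all tested loci as a dashed line. Near the 200 loci the share is 26.8% at a distance of 1 and 14.4% at a distance of 5.

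Transcript models are parts of the locus counts that chose the loci, so their calls follow from the choice. The 200 loci had 320 transcript models in the count table, and 134 of the loci had a single model. All 320 models passed the expression filter and were called lower at R6 in both genotypes by edgeR, where 18.8% of all tested models were called lower in GmNAC81-3 and 18.3% in BR16. No model of these loci had a higher mean at R6 than at V3.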

How the data were processed

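Leaf discs of the third leaf gave 12 libraries, 3 in each of 4 groups. By the study's methods, TruSeq stranded libraries were sequenced as 100 bp paired ends, trimmed with Sickle, mapped with Bowtie 2 to the soybean assembly Wm82.a2.v1 and counted with Rsubread. The submitters' processing notes name featureCounts for the counting and HISAT2 2.1.0 in place of Bowtie 2, and which aligner was used was not settled. The deposited values are the authors' raw counts, not normalized, for 84782 transcript models. Between 74.1% and 84.9% of the counts from 1 to 49 were even, so both mates of a pair may have been counted. The study's methods name 3 plants per treatment as the source of the leaves. The labels do not tie libraries to plants, and p-values measure the spread between these samples.

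Counts were summed per locus and analysed in R 4.3.3 with edgeR 4.0.16. After filterByExpr and TMM scaling, 4 group means were fitted to all 12 libraries and p-values were adjusted over all 39443 tested loci. CPM values use TMM-scaled library sizes. Each SE of a log2 fold change is its absolute value divided by the square root of the F statistic of its test. It is an approximation and not an error estimated by the fit. The procedure was tested on simulated data. Fold changes of loci without any R6 count are bounds against 3 counts over the 3 R6 libraries of a genotype, and those with 1 to 3 counts are ratios with an exact Poisson interval.

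V3 libraries with the same replicate number deviated together from their group means (correlations across loci 0.462, 0.264 and 0.163), so the numbers may pair the V3 libraries, although the labels state no pairing. The main fit took no account of such pairing, and a replicate block was used only as an alternative. In no other pair of groups did all 3 numbers do so. Alternatives were DESeq2 1.42.0, its size factors, other expression filters, fits of the groups compared, a replicate block, other thresholds and each library left out.

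The loci and lists were chosen with earlier results of these data known. Loci named are the 10 with the highest ratio, the 5 with the highest mean V3 CPM, ranks 200 and 201 with their next neighbours, groups of at least 3 within 10 annotated loci, and the WNK1 homologues. Function lists, closest paralogs, promoter motifs, cell type marker lists and sequences were not used here, since no table that links these identifiers to products was at hand. Gene descriptions were taken from the study's supplement, without its values. Its gene lists hold genes that the study reported as differentially expressed between the genotypes at V3.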

Additional observations from a re-analysis of the deposited data

How the results depend on the processing

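The count of loci lower at R6 stayed at 200 of 200 in GmNAC81-3 and in BR16 under all alternatives run, which follows from how the loci were chosen. With the replicate block over all 12 libraries the counts were again 200 in both genotypes and 0 between the genotypes at R6, at V3 and in the difference of stage effects, and a block on the V3 libraries alone, added after seeing the data, also gave 0 at V3, so the block changed no call. DESeq2's Wald test called 5 loci between GmNAC81-3 R6 and BR16 R6 (2.5%, and 0.568% of all tested loci) and 7 in the difference of stage effects (3.5%, and 2.64%), where edgeR called 0. The difference of stage effects rests on values that the choice used. Without the replicate 1 libraries of both V3 groups, an alternative added after seeing the data, edgeR called 1 locus in the difference of stage effects, Glyma.02G073600. All other alternatives run for these genotype contrasts gave 0 calls, each library left out included. In the fit of the R6 groups alone, the 3 loci without any R6 count could not be tested. At 30 named loci, all 1260 values of the log2 fold change of R6 with V3 over the alternatives kept direction and call. This too follows from how the loci were chosen, and changed thresholds reused the main fit.

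The choice of loci moved more. Of the 200, 33 were chosen again (16.5% of each list) with CPM of total counts without TMM, 92 (46%) without the limit between genotypes, 136 (68%) with an offset of 1 CPM and 188 (94%) without the expression filter. The top 100 hold 100 of the 200 and the top 400 hold all 200 by construction. With each library left out, between 130 and 197 were chosen again, lowest without GmNAC81-3 V3 replicate 1, and 131 without both V3 replicate 1 libraries. With transcript models in place of loci, 320 of 320 models were called lower in each genotype. Comparisons of closest paralogs and function lists were not run. At R6, levels under the 3-count limit of 0.0266 to 0.0497 CPM per library rest on fewer than 3 counts and are uncertain.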

Other observations

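The small remainder at R6 did not come from a single library. The highest R6 value of a locus fell in replicates 1, 2 and 3 of GmNAC81-3 at 45, 21 and 48 of the 200 loci, and in replicates 1, 2 and 3 of BR16 at 19, 50 and 14. The median CPM of the 200 lay between 0.196 and 0.256 in the GmNAC81-3 R6 libraries and between 0.144 and 0.273 in the BR16 R6 libraries. Loci without any R6 count in GmNAC81-3 numbered 9, and those without any in BR16 numbered 7, of which 3 were shared.

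Of the 27 loci with an unadjusted p under 0.05 between the genotypes at R6, further ones lay on either side, and edgeR called none of them. Glyma.18G223100 had 0.166, 0.308 and 0.320 CPM in GmNAC81-3 R6, against 0.835, 0.545 and 0.462 CPM in BR16 R6, a log2 fold change of -1.20 (adjusted p = 0.358 by edgeR). Glyma.04G179600 had 0.248, 0.202 and 0.144 CPM in GmNAC81-3 R6, against 0.302, 0.354 and 0.288 CPM in BR16 R6, a log2 fold change of -0.66 (adjusted p = 0.613 by edgeR). At both loci the GmNAC81-3 R6 libraries lay wholly below those of BR16 R6. Glyma.10G211000 had 1.76, 2.45 and 2.43 CPM in GmNAC81-3 R6, against 1.40, 1.17 and 0.796 CPM in BR16 R6, a log2 fold change of 0.97 (adjusted p = 0.306 by edgeR). These loci were named after their values were seen.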
